A study of Mus musculus with 9 samples.

Results

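A set of 10 genes of BMP and activin signaling was followed in the mouse uterus with and without WNK1. They were the ligand genes *Bmp2*, *Bmp4*, *Bmp7*, *Inhba* and *Inhbb*, the antagonist gene *Fst*, and the receptor genes *Acvr1*, *Acvr2a*, *Bmpr1a* and *Bmpr2*. They were chosen by symbol, with no measured value in the rule, but with earlier results of these data known. All 10 were found on 1 row each among the 31274 entries of the deposited FPKM table. FPKM is the number of fragments scaled to the length of the transcript and to the size of the library, so levels of different genes can be set side by side.

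RNA came from whole uteri of virgin C57BL/6 females, 6 to 10 weeks old, on pseudopregnancy day (PPD) 4.5 after mating with vasectomized WT males, with 1 library per mouse. The 4 Wnk1f/f controls carried *Wnk1* with loxP sites around exon 2, and the 5 Wnk1d/d mice carried the same floxed alleles together with *Cre* expressed from the progesterone receptor gene (PGRCre/+), which removes that exon. Cells that do not express PGR, such as endothelial and immune cells, keep an intact *Wnk1*, while *Cre* also acts in ovary and pituitary. The controls are not described as carrying *Cre*, so the deletion and the *Cre* allele cannot be told apart. *Wnk1* itself was 43.41 to 47.32 FPKM in the controls and 29.85 to 33.94 FPKM in Wnk1d/d uteri, without overlap. Fewer cells of a type and less RNA per cell cannot be told apart in RNA of a whole organ.

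BMPs and activins are secreted dimers of the TGF-β family. They bring together type I and type II receptors, which phosphorylate SMAD proteins that then act on genes in the nucleus. Among the genes followed here, *Acvr1* and *Bmpr1a* encode type I receptors that serve mainly BMPs, and *Acvr2a* and *Bmpr2* encode type II receptors. SMAD1 and SMAD5 carry mainly BMP signals, and SMAD2 and SMAD3 carry activin signals. Follistatin, encoded by *Fst*, binds activins tightly and some BMPs more weakly and keeps them from their receptors. In the uterus this family is known for its part in implantation and in decidualization, the change of stromal cells that follows attachment of an embryo.

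At PPD 4.5 the 2 activin subunit genes were higher and *Bmp7* and *Fst* were lower in Wnk1d/d uteri, while the 4 receptor genes, *Bmp2* and *Bmp4* did not pass the test. The comparison was made by limma on log2(FPKM + 1), with Benjamini-Hochberg adjustment of p over 14728 genes, those whose mean exceeded 1 FPKM in either genotype. A gene was called when its adjusted p was under 0.05, and was a differentially expressed gene (DEG) when its genotype means also differed at least 1.5 times. All 10 genes were tested and 4 were called, of which 2 rose and 2 fell, and the same 4 were DEGs. Of all genes tested 22.1% were called (11.1% higher and 11% lower in Wnk1d/d uteri) and 10.3% were DEGs (5.09% higher and 5.18% lower). The libraries of the genotypes did not overlap for these 4 genes, nor for 19.9% of all genes tested. *Inhba* was below 1 FPKM in every control and was tested only because its Wnk1d/d mean was above 1 FPKM, so it had to differ to be counted. Of the 9 genes above 1 FPKM in both genotypes, 3 were DEGs. Among ligands and antagonist 4 of 6 genes were DEGs, with *Inhba*, which had to differ, among the 4, and among receptors 0 of 4. The difference between these counts was not tested.

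**Figure D1:**
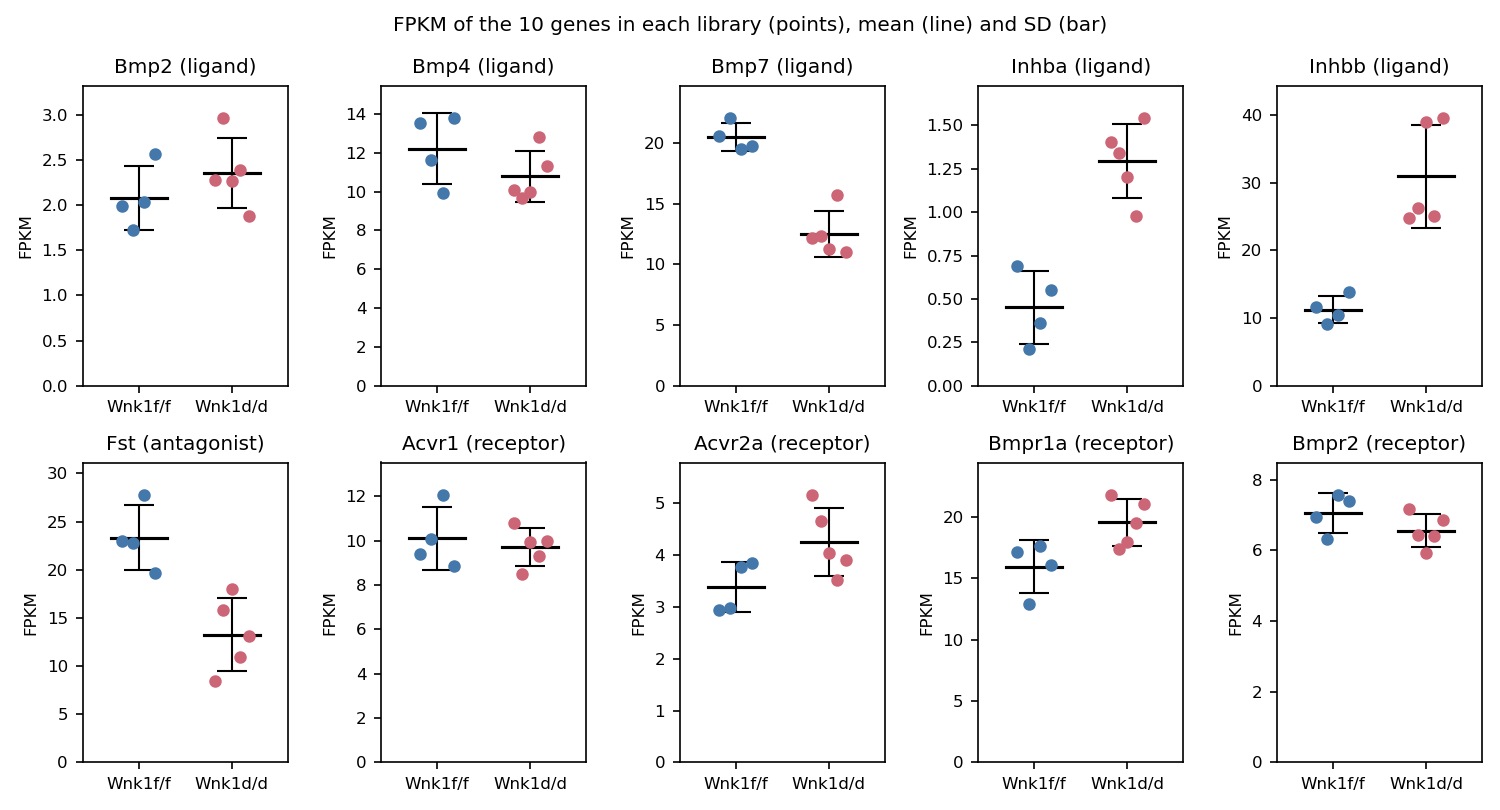
FPKM (y axis, from 0) of the 10 genes in the 4 Wnk1f/f and 5 Wnk1d/d libraries, 1 point per library, with the mean as a line and the SD as a bar. The points of the genotypes are apart for *Bmp7*, *Inhba*, *Inhbb* and *Fst* and overlap for the other 6 genes.

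*Inhbb* encodes the βB subunit, which forms activin B as a dimer with itself and inhibin B with the inhibin α subunit. It lies on the minus strand of chromosome 1, from 119415465 to 119422248 on mm10. The controls had 11.69, 9.17, 10.40 and 13.80 FPKM, and the Wnk1d/d uteri had 24.77, 26.27, 38.99, 25.12 and 39.52 FPKM. Every Wnk1d/d library was above every control, with 11.0 FPKM between the nearest, and within Wnk1d/d replicates 3 and 5 were well above the other 3. The means were 11.3 ± 1.98 FPKM (SD, n = 4) and 30.9 ± 7.62 FPKM (SD, n = 5), a ratio of 2.75 (log2 fold change 1.36 with a standard error of 0.18, limma adjusted p = 0.0026). Of all genes tested, 98.6% had a smaller absolute log2 fold change. The exact two-sided permutation test on the same scale gave p = 0.0079, the smallest that 4 against 5 libraries allow.

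*Inhba* encodes the βA subunit of activin A, and lies on the plus strand of chromosome 13, from 16011851 to 16031621. Its level was the lowest of the 10 genes in both genotypes. The controls had 0.69, 0.21, 0.36 and 0.55 FPKM, and the Wnk1d/d uteri had 1.40, 1.34, 1.20, 0.98 and 1.54 FPKM. The genotypes did not overlap, and the gap between them was 0.29 FPKM. The means were 0.452 ± 0.211 FPKM (SD, n = 4) and 1.29 ± 0.213 FPKM (SD, n = 5), a ratio of 2.86 (log2 fold change 0.66 with a standard error of 0.13, limma adjusted p = 0.0099; exact permutation p = 0.0079). Adding 1 to such low values shrinks the fold change, and the log2 ratio of the means themselves was 1.51. The ratio of *Inhbb* was 2.75, but the ratio of *Inhba* rests on controls below 1 FPKM and is uncertain, and the 2 ratios were not compared by a test. FPKM of *Inhba* was well below that of *Inhbb* in every library.

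The 250 bases upstream of the 2 activin subunit genes are shown because both genes rose. They come from RefSeq on GRCm38.p6, which held such a window for 7 of the 10 genes, among them neither *Bmp7* nor *Fst*. The *Inhbb* window is chr1:119422249-119422498 on the minus strand and the *Inhba* window is chr13:16011601-16011850 on the plus strand, each ending at the base before the gene. The windows were searched on both strands for the forkhead motif GTAAACA, for the SMAD-binding motif CAGACA, for the GC-rich SMAD-binding motif GGCGCC and for the TATA box as TATAAA, none of which contains another. Capitals mark any match.
Inhbb: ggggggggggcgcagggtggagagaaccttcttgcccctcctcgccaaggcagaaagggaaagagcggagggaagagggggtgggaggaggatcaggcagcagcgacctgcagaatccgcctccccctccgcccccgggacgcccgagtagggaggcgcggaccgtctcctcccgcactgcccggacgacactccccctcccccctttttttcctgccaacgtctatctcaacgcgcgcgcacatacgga
Inhba: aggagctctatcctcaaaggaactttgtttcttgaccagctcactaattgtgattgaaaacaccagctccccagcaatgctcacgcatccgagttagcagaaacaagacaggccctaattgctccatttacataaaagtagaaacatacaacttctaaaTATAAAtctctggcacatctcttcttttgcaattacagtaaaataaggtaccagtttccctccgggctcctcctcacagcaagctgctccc
The *Inhba* window held 1 match, TATAAA, which 12.4% of 32851 RefSeq windows of that length hold, and the *Inhbb* window held none of the 4. GC content was 68.0% for *Inhbb* and 43.2% for *Inhba*, against a median of 52.4% over all windows. Of the other 5 genes with a window, *Bmpr1a* and *Bmpr2* each had 1 match to GGCGCC, which 9.59% of windows hold. CAGACA is held by 17.1% and GTAAACA by 3.17% of windows, and neither was found in the 7. A match is a description of the letters and not a bound site.

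*Fst* encodes follistatin and lies on the minus strand of chromosome 13, from 114452290 to 114458951. The controls had 23.01, 22.82, 27.80 and 19.63 FPKM, and the Wnk1d/d uteri had 8.41, 15.81, 18.00, 10.96 and 13.09 FPKM. All Wnk1d/d libraries were below all controls, by at least 1.63 FPKM, although they spread widely among themselves. *Fst* fell from 23.3 ± 3.37 FPKM (SD, n = 4) to 13.3 ± 3.80 FPKM (SD, n = 5), a ratio of 0.568 (log2 fold change -0.80 with a standard error of 0.19, limma adjusted p = 0.02; exact permutation p = 0.016). With no filter on low FPKM, which adds many genes to the limma fit and to the adjustment, its adjusted p was 0.067.

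Within each library, *Fst* and *Inhbb* changed places. Follistatin transcripts were 1.97, 2.49, 2.67 and 1.42 times those of *Inhbb* in the controls, and 0.340, 0.602, 0.462, 0.436 and 0.331 times in Wnk1d/d uteri. *Fst* was thus above *Inhbb* in all 4 controls and below it in all 5 Wnk1d/d uteri. Set against the sum of both activin subunit genes, *Fst* was 2.06 ± 0.555 times as high (SD, n = 4) in controls and 0.416 ± 0.105 times (SD, n = 5) in Wnk1d/d uteri. These ratios combine genes already compared one by one and were given no test.

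**Figure D2:**
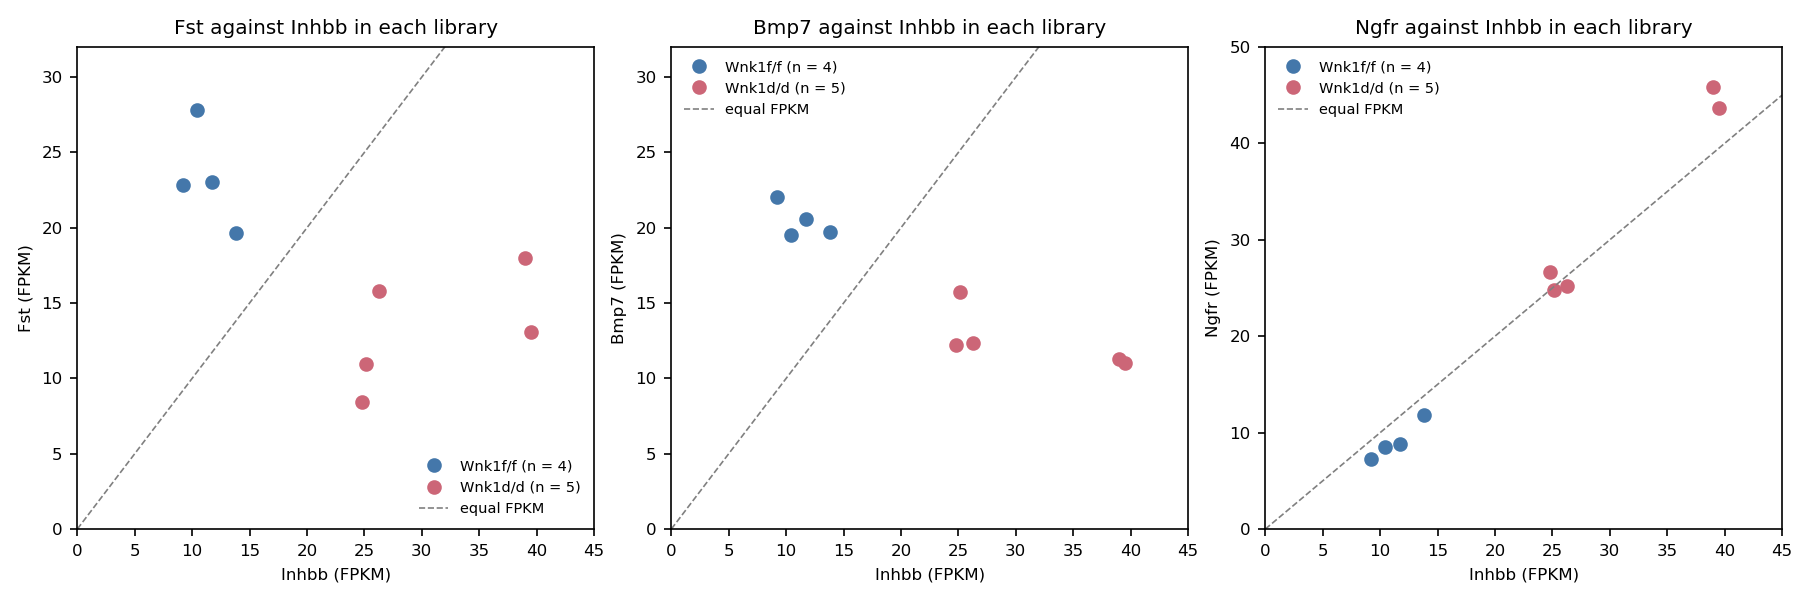
FPKM of *Fst* (left), *Bmp7* (middle) and *Ngfr* (right) on the y axis against FPKM of *Inhbb* on the x axis, 1 point per library, with a dashed line at equal FPKM. The 4 controls lie above the line and the 5 Wnk1d/d uteri below it for *Fst* and *Bmp7*, while *Ngfr* stays near the line in all 9 libraries.

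*Bmp7* encodes a BMP known for its part in kidney and eye development, and lies on the minus strand of chromosome 2, from 172868012 to 172940321. The controls had 20.61, 22.05, 19.53 and 19.75 FPKM, and the Wnk1d/d uteri had 12.21, 12.36, 11.28, 15.73 and 11.02 FPKM. The controls were close together and all above the Wnk1d/d uteri, of which replicate 4 was the nearest to them. *Bmp7* fell from 20.5 ± 1.14 FPKM (SD, n = 4) to 12.5 ± 1.89 FPKM (SD, n = 5), a ratio of 0.611 (log2 fold change -0.68 with a standard error of 0.10, limma adjusted p = 0.0039; exact permutation p = 0.016). Without Wnk1d/d replicate 4 the log2 fold change was -0.76.

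*Bmp4*, on the minus strand of chromosome 14 from 46383520 to 46390669, and *Bmp2*, on the plus strand of chromosome 2 from 133552159 to 133562885, encode a closely related pair of BMPs, and BMP2 is known to be needed for decidualization in the mouse. *Bmp4* had 13.52, 11.64, 9.91 and 13.78 FPKM in controls and 10.09, 9.67, 9.97, 12.82 and 11.34 FPKM in Wnk1d/d uteri. The genotypes overlapped over most of this range (log2 fold change -0.16, 95% interval -0.41 to 0.09, limma adjusted p = 0.31). *Bmp2* had 1.99, 1.72, 2.03 and 2.56 FPKM in controls and 2.28, 2.96, 2.26, 2.39 and 1.88 FPKM in Wnk1d/d uteri, again with overlap (log2 fold change 0.12, 95% interval -0.13 to 0.38, limma adjusted p = 0.45). The interval of *Bmp4* does not reach the change of *Bmp7*, but the difference between the 2 changes was not tested. The implanting embryo, around which *Bmp2* is known to be induced, was absent from these pseudopregnant uteri.

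Since *Bmp7* fell and *Inhbb* rose, the composition of the ligand transcripts differed. *Bmp7* made up 42.5%, 49.2%, 46.2% and 39.2% of the summed FPKM of the 5 ligand genes in controls and 24.1%, 23.5%, 17.7%, 27.6% and 16.9% in Wnk1d/d uteri. *Inhbb* made up 24.1%, 20.5%, 24.6% and 27.4% in controls and 48.8%, 49.9%, 61.2%, 44.0% and 60.5% in Wnk1d/d uteri. The largest share thus belonged to *Bmp7* in each control and to *Inhbb* in each Wnk1d/d uterus. The sum itself was 46.5 ± 3.68 FPKM (SD, n = 4) in controls and 57.9 ± 6.48 FPKM (SD, n = 5) in Wnk1d/d uteri. The 3 BMP genes summed to 34.8 ± 2.21 FPKM (SD, n = 4) and 25.6 ± 2.99 FPKM (SD, n = 5), and the 2 activin genes to 11.7 ± 2.16 FPKM (SD, n = 4) and 32.2 ± 7.71 FPKM (SD, n = 5).

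The receptor genes moved little. *Bmpr1a* encodes the type I receptor ALK3, which binds BMP2 and BMP4, and lies on the minus strand of chromosome 14, from 34410734 to 34503341. It had 17.16, 12.89, 17.64 and 16.10 FPKM in controls and 21.81, 17.37, 17.96, 19.49 and 21.08 FPKM in Wnk1d/d uteri. The Wnk1d/d mean was higher, with 1 Wnk1d/d library below the highest control, and the gene did not pass the adjusted threshold (log2 fold change 0.28 with a standard error of 0.10, limma adjusted p = 0.077; exact permutation p = 0.032). Its adjusted p was 0.046 when libraries were weighted by their quality, and it was not a DEG in any of 19 alternatives.

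*Acvr1* encodes the type I receptor ALK2, which serves BMP7 among other ligands, and lies on the minus strand of chromosome 2, from 58388644 to 58567157. It had 9.39, 10.09, 12.08 and 8.86 FPKM in controls and 10.80, 8.51, 9.93, 9.31 and 9.99 FPKM in Wnk1d/d uteri. The genotypes lay over each other (log2 fold change -0.05, 95% interval -0.26 to 0.17, limma adjusted p = 0.74). Without Wnk1f/f replicate 3, the highest library, its log2 fold change was 0.03.

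The 2 type II receptor genes differed from each other in the sign of their estimates. *Acvr2a* encodes an activin receptor that some BMPs also use, and lies on the plus strand of chromosome 2, from 48814109 to 48903269. It had 2.94, 2.98, 3.77 and 3.84 FPKM in controls and 5.16, 4.66, 4.03, 3.51 and 3.91 FPKM in Wnk1d/d uteri, where 4 of 5 libraries were above every control (log2 fold change 0.26, 95% interval 0.00 to 0.52, limma adjusted p = 0.12; exact permutation p = 0.079). *Bmpr2* encodes the type II receptor that is most specific for BMPs, and lies on the plus strand of chromosome 1, from 59763400 to 59879014. It had 6.95, 6.32, 7.58 and 7.39 FPKM in controls and 7.16, 6.43, 5.94, 6.40 and 6.85 FPKM in Wnk1d/d uteri, with overlap (log2 fold change -0.09, 95% interval -0.26 to 0.07, limma adjusted p = 0.38). Over the 4 receptor genes the 95% intervals ran from -0.26 at the lowest to 0.52 at the highest, so a change of the size of *Inhbb* lay outside all of them.

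**Figure D3:**
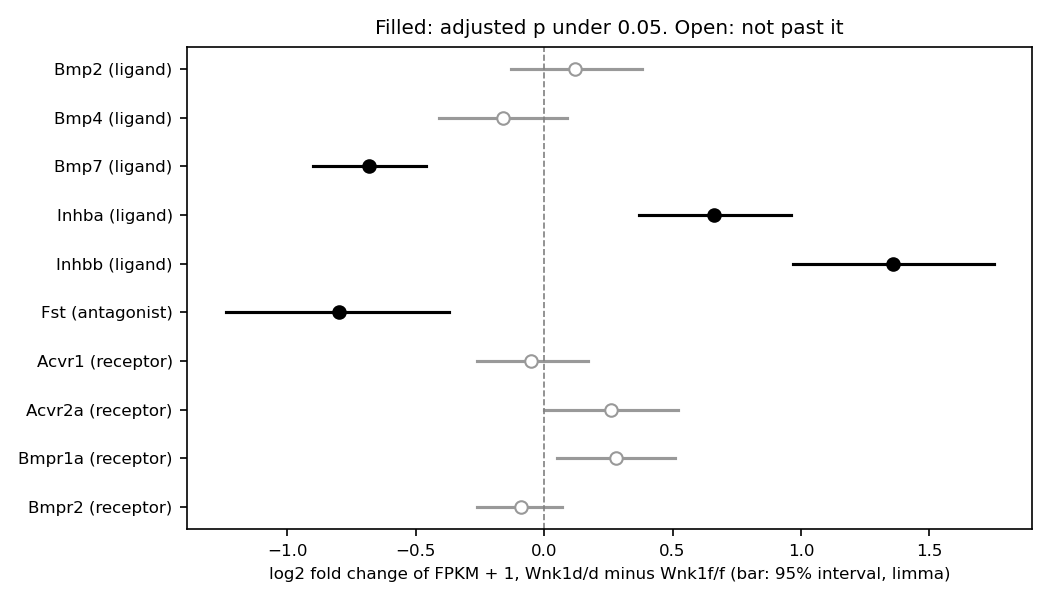
log2 fold change of FPKM + 1, Wnk1d/d minus Wnk1f/f (x axis), of each of the 10 genes (y axis), with the 95% interval from limma as a bar and filled points for an adjusted p under 0.05. *Inhba* and *Inhbb* lie above 0, *Bmp7* and *Fst* below 0, and the intervals of the 4 receptor genes lie between -0.26 and 0.52.

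The mean log2(FPKM + 1) of the 4 receptor genes was 3.13, 3.03, 3.32 and 3.19 in controls and 3.43, 3.21, 3.21, 3.20 and 3.30 in Wnk1d/d uteri, with overlap. For the 5 ligand genes it was 2.86, 2.65, 2.67 and 2.92 in controls and 2.97, 3.03, 3.05, 3.06 and 3.08 in Wnk1d/d uteri. The ligand mean averages genes that rose with 1 that fell and moved less than any of the 3. The FPKM of the 4 receptor genes summed to 36.5 ± 3.60 (SD, n = 4) in controls and 40.1 ± 3.25 (SD, n = 5) in Wnk1d/d uteri.

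The order of the levels shifted at its top. In controls it ran *Fst*, *Bmp7*, *Bmpr1a*, *Bmp4*, *Inhbb*, *Acvr1*, *Bmpr2*, *Acvr2a*, *Bmp2* and *Inhba*. The library ranges of *Fst* and *Bmp7* overlapped there, as did each neighbouring pair from *Bmpr1a* to *Acvr1*, and the others were apart. In Wnk1d/d uteri *Inhbb* came first, apart from all others, followed by *Bmpr1a*, *Fst*, *Bmp7*, *Bmp4* and *Acvr1*, of which each neighbouring pair overlapped. The last 4 places were the same in both genotypes and did not overlap their neighbours. The spread between mice was smallest for *Bmp7* among controls (coefficient of variation 5.58%) and largest for *Inhba* (46.6%), and among Wnk1d/d uteri it was smallest for *Bmpr2* (7.12%) and largest for *Fst* (28.7%).

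Other genes of the pathway were taken from lists by role. Of 63 genes listed, 43 passed the FPKM filter, and 4 of these had an adjusted p under 0.05 with higher and 6 with lower FPKM in Wnk1d/d uteri. That is 23.3% of them, close to the 22.1% of all genes tested, so the lists as a whole did not stand out. Their median log2 fold change was -0.12, against 0.00 for all genes.

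Among the other secreted antagonists 9 of 14 genes were tested, of which 2 rose, 2 fell and 5 did not pass. *Nog* encodes noggin, which binds BMPs, and had 43.02, 32.27, 33.32 and 45.28 FPKM in controls and 13.26, 31.71, 12.68, 21.88 and 13.07 FPKM in Wnk1d/d uteri. Every Wnk1d/d library was below every control, narrowly so for replicate 2 (log2 fold change -1.09 with a standard error of 0.26, limma adjusted p = 0.02), and without Wnk1f/f replicate 4 its adjusted p was 0.057. *Fstl3* encodes a follistatin-like protein that also binds activins, and had 12.88, 9.94, 8.12 and 7.34 FPKM in controls and 14.70, 12.69, 19.21, 20.58 and 19.62 FPKM in Wnk1d/d uteri. It rose where *Fst* fell, with a slight overlap (log2 fold change 0.80 with a standard error of 0.18, limma adjusted p = 0.015). *Chrdl1*, which encodes a chordin-like BMP antagonist, rose from 1.94 to 3.21 FPKM without overlap (limma adjusted p = 0.012), and *Nbl1*, which encodes a BMP antagonist of the DAN family, fell from 305 to 216 FPKM, a ratio of 0.708 that is not a DEG. *Nbl1* was named after its values were seen, and its adjusted p rose to at most 0.063 without Wnk1f/f replicate 1, 2 or 4 or Wnk1d/d replicate 3. Antagonist genes thus moved in both directions, and *Fst* and *Nog* were the 2 DEGs that fell.

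Of the other ligand genes 8 of 19 were tested and 1 changed. *Gdf7*, a BMP-like ligand gene, fell from 17.5 ± 1.02 FPKM (SD, n = 4) to 11.6 ± 3.10 FPKM (SD, n = 5) without overlap (log2 fold change -0.59 with a standard error of 0.17, limma adjusted p = 0.035). The call was lost without any 1 of the 4 controls and without Wnk1d/d replicate 3 or 4, with adjusted p up to 0.082. *Inha*, which encodes the inhibin α subunit, had 13.3 ± 0.751 FPKM (SD, n = 4) in controls and 11.3 ± 2.74 FPKM (SD, n = 5) in Wnk1d/d uteri and did not pass (log2 fold change -0.25 with a standard error of 0.15, limma adjusted p = 0.24). It is named here because the α subunit pairs with the β subunits encoded by *Inhba* and *Inhbb* to form inhibins, and was chosen after its values were seen. Of the other receptors and co-receptors 7 of 10 were tested and only *Rgma*, a BMP co-receptor gene that was also named after its values were seen, passed, with 20.9 FPKM in controls and 28.7 FPKM in Wnk1d/d uteri (limma adjusted p = 0.036). This call was lost without Wnk1f/f replicate 2, 3 or 4 and without Wnk1d/d replicate 3, 4 or 5, with adjusted p up to 0.097.

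Of the SMAD mediators 5 of 6 genes were tested, of which 2 fell and 3 did not pass. *Smad1*, of the BMP branch, had 52.96, 50.36, 54.22 and 52.31 FPKM in controls and 33.59, 44.36, 31.02, 38.07 and 36.23 FPKM in Wnk1d/d uteri (log2 fold change -0.52 with a standard error of 0.09, limma adjusted p = 0.0082). *Smad3*, of the activin and TGF-β branch, had 26.04, 25.58, 25.53 and 23.86 FPKM in controls and 18.40, 19.01, 14.81, 18.98 and 14.75 FPKM in Wnk1d/d uteri (log2 fold change -0.54 with a standard error of 0.09, limma adjusted p = 0.0066). Both were lower in every Wnk1d/d library and both had ratios short of the fold criterion, 0.699 and 0.681. Of the 5 intracellular inhibitors (*Smad6*, *Smad7*, *Smurf1*, *Smurf2* and *Bambi*) none passed, with log2 fold changes from -0.25 to 0.06.

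Genes that BMP signals are known to induce gave 0 calls in 5 tested. *Id1*, *Id2*, *Id3*, *Id4* and *Atoh8* had log2 fold changes from -0.22 to 0.63 and a median of 0.15. *Id4* was at the upper end (limma adjusted p = 0.072) and the others had adjusted p of 0.43 or more. Of 4 genes linked to BMP2 or its receptors in decidualization, *Wnt6* fell and *Cebpb* rose. *Wnt6* had 3.80, 6.25, 6.59 and 5.34 FPKM in controls and 0.79, 2.45, 1.04, 1.96 and 1.01 FPKM in Wnk1d/d uteri, without overlap (log2 fold change -1.43 with a standard error of 0.22, limma adjusted p = 0.0048). *Cebpb* encodes a transcription factor and had 28.1 ± 7.85 FPKM (SD, n = 4) in controls and 47.3 ± 10.1 FPKM (SD, n = 5) in Wnk1d/d uteri (log2 fold change 0.74 with a standard error of 0.20, limma adjusted p = 0.03). This call was lost without Wnk1f/f replicate 1, 3 or 4 and without Wnk1d/d replicate 3, 4 or 5, with adjusted p up to 0.078. *Wnt4* and *Ptx3* did not pass.

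**Figure D4:**
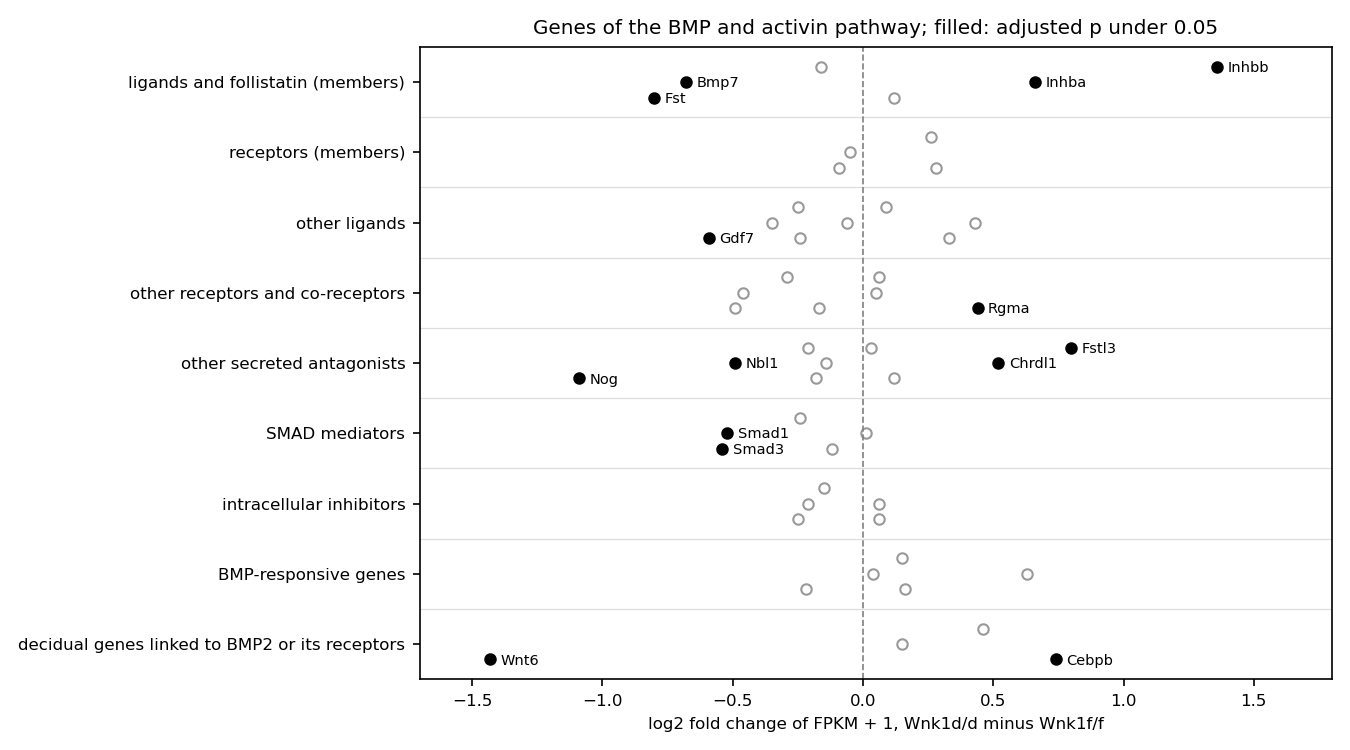
log2 fold change of FPKM + 1, Wnk1d/d minus Wnk1f/f (x axis), of the 10 genes and of 43 other genes of the pathway, in rows by role, 1 point per gene, filled and named where the adjusted p was under 0.05. Filled points lie on both sides of 0 among ligands and antagonists, and the rows of the 4 receptors, of the intracellular inhibitors and of the BMP-responsive genes hold none.

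Tissue markers were read beside these values. All 6 markers each of uterine epithelium and stroma were above the FPKM filter, and the summed FPKM of each list overlapped between genotypes. None of the epithelial markers was called. Of the stromal ones 1 (*Lum*) rose and 4 (*Pdgfra*, *Hand2*, *Hoxa10* and *Hoxa11*) fell, each without overlap. The highest of the stromal markers, *Dcn*, had means of 563 FPKM in controls and 645 FPKM in Wnk1d/d uteri and was not called. All 6 smooth muscle genes rose, with sums of 2797 to 6372 FPKM in controls and 7210 to 13655 FPKM in Wnk1d/d uteri, and all 6 endothelial genes fell, with sums of 331 to 367 FPKM and 131 to 266 FPKM. Of 4 oviduct genes, *Foxj1* was below 1 FPKM in every library, and the sum was 102 to 114 FPKM in controls and 132 to 190 FPKM in Wnk1d/d uteri. Its members went both ways, since *Ovgp1* rose from 11.3 to 52.6 FPKM and *Pax8* from 34.8 to 51.9 FPKM, while *Wt1* fell from 61.7 to 46.1 FPKM. The sum of the 4 mesothelial genes was 60.5 to 87.4 FPKM in controls and 65.2 to 115 FPKM in Wnk1d/d uteri. *Wt1* made up most of it in every library except Wnk1d/d replicate 1, which had the highest sum. There *Wt1* had 50.19, *Msln* 28.40, *Upk3b* 26.91 and *Lrrn4* 9.12 FPKM. The other 3 mesothelial genes had higher means in Wnk1d/d uteri. *Lrrn4* rose from 1.52 to 4.70 FPKM, *Msln* had 5.15 and 13.9 FPKM without overlap but was not called, and *Upk3b* had 7.14 and 14.0 FPKM with overlap. The sums of 6 leukocyte genes overlapped, and all 4 adipose genes were below 1 FPKM. The smooth muscle and endothelial lists moved by genotype along with *Inhbb*, *Inhba*, *Fst* and *Bmp7*. So did members of the stromal, oviduct and mesothelial lists. The part of all these markers in the results was not tested. Inhibin and activin subunits are abundant in ovarian granulosa cells, and of 8 ovarian genes *Fshr*, *Lhcgr* and *Cyp19a1* were below 1 FPKM in every library. The sum of the list was 26.1 to 27.9 FPKM in controls and 24.3 to 50.5 FPKM in Wnk1d/d uteri. Most of it in controls was *Foxl2*, which went the other way, with means of 20.3 FPKM in controls and 17.0 FPKM in Wnk1d/d uteri. *Foxl2* had 17.13 FPKM in Wnk1d/d replicate 3. Of these 8 genes 6 were highest in Wnk1d/d replicate 3, namely the steroid synthesis genes *Cyp11a1* (13.92 FPKM), *Hsd3b1* (9.37 FPKM) and *Star* (7.01 FPKM), the granulosa cell gene *Amh* (1.95 FPKM), *Lhcgr* (0.90 FPKM) and *Fshr* (0.17 FPKM). *Hsd3b1* averaged 0.61 FPKM in controls and 2.80 FPKM in Wnk1d/d uteri, and none of the 4 ovarian genes tested was called. In Wnk1d/d replicate 5, which with replicate 3 had the highest *Inhbb*, *Cyp11a1* was 0.43, *Hsd3b1* 0.28 and *Amh* 0.38 FPKM. *Cyp11a1* and *Hsd3b1* had 4.23 and 2.92 FPKM in Wnk1d/d replicate 1 and 1.97 and 1.40 FPKM in Wnk1d/d replicate 2. In Wnk1f/f replicate 3 they had 3.47 and 2.44 FPKM. The part of ovarian transcripts in these results was not tested. Without Wnk1d/d replicate 3 the log2 fold change was 1.27 for *Inhbb* and -0.92 for *Fst*. Wnk1f/f replicate 4 held liver markers at 149 FPKM in sum, against at most 9.64 FPKM in the other controls, and in Wnk1d/d replicate 4 a single entry took 70.3% of the summed FPKM. Without Wnk1f/f replicate 4 the log2 fold changes were 1.46 for *Inhbb*, 0.70 for *Inhba*, -0.69 for *Bmp7* and -0.88 for *Fst*, and without Wnk1d/d replicate 4 they were 1.43, 0.72, -0.76 and -0.75.

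*Inhbb* had the smallest adjusted p of the 10 genes, and the 3 tested genes whose log2(FPKM + 1) was most like it over the 9 libraries were *Ngfr*, *Nptxr* and *Parp3*, with Pearson r of 0.998, 0.982 and 0.977. The 9 libraries fall into 2 genotypes, and such an r includes the difference between them. With the genotype means removed, r was 0.981 for *Ngfr*, 0.856 for *Nptxr* and 0.814 for *Parp3*. The 3 genes were picked by r among the 14728 genes tested, over these same libraries. The values with the means removed are therefore no independent check of the likeness. *Nptxr* averaged 0.995 FPKM in controls and 2.37 FPKM in Wnk1d/d uteri, so it was tested only through its Wnk1d/d mean. *Ngfr* encodes a receptor for neurotrophins, and had 8.87, 7.27, 8.53 and 11.85 FPKM in controls and 26.65, 25.20, 45.85, 24.80 and 43.64 FPKM in Wnk1d/d uteri. Like *Inhbb*, it was highest in Wnk1d/d replicates 3 and 5 and, among controls, in replicate 4.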

How the data were processed

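Uterine RNA of 9 mice was sequenced as 75-nt read pairs, aligned by the authors to mm10 with TopHat2 2.0.4, and deposited as FPKM from Cufflinks (2.0.2 in the submitters' processing notes). The gene annotation is not given in the sources used here. FPKM hold no fragment counts, so depth is unknown and no counting interval was given. Columns were matched to mice by their labels, and 0 columns of other samples were present. log2(FPKM + 1) was fitted with limma 3.58.1 (R 4.3.3; lmFit, eBayes with trend, no replicate block) on the 14728 genes with a mean above 1 FPKM in at least 1 genotype, with Benjamini-Hochberg adjustment. Cuffdiff, which needs reads, was not rerun. Single genes were compared by exact two-sided permutation of the absolute difference of mean log2(FPKM + 1) (SciPy 1.17.1). The limma step was tested on simulated data. Gene positions are from GENCODE M21 (mm10). The 10 genes, the pathway and marker lists and the alternatives were chosen with earlier results of these data known. Named were the 10 genes, pathway genes that were DEGs or called SMADs, the 3 genes most like the one with the smallest adjusted p, and *Wnk1*, with exceptions stated. Marker *Adgre1* was found under an older symbol.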

Additional observations from a re-analysis of the deposited data

Results flagged for a closer look

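*Bmp7* in Wnk1d/d replicate 4 had 15.73 FPKM, where the next highest Wnk1d/d library had 12.36 FPKM. This gap was 0.715 of the range of the 5 libraries, just above Dixon's 95% value of 0.71. Of the 20 groups of libraries looked at (10 genes in 2 genotypes) this was the only one to pass, and chance alone passes about 1 in 20. The library was still below every control, and without it the log2 fold change of *Bmp7* was -0.76 (limma adjusted p = 0.0019).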

How the results depend on the processing

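*Inhbb*, *Inhba*, *Bmp7* and *Fst* kept an adjusted p under 0.05 in each of the 9 fits that left out 1 library, so 4 to 4 of the 10 genes were called, as DEGs too. All genes called ranged from 1739 (without Wnk1f/f replicate 4) to 4216 (without Wnk1d/d replicate 2) in these fits, against 3249, and were 1800 without Wnk1d/d replicate 3 and 2051 without Wnk1d/d replicate 5. Called pathway genes ranged from 5 (without Wnk1f/f replicate 4) to 14, against 10, and were 6 without Wnk1d/d replicate 3. With no filter on FPKM 1799 genes and 4 pathway genes were called, and *Fst* was lost. Low genes then join both the limma fit and the adjustment, and the part of each was not tested. With library weights 16 pathway genes were called, and the cause was not tested. *Inhba* was not tested with the filter at 5 FPKM. The log2 fold change of *Acvr1* ranged from -0.10 (without Wnk1f/f replicate 4) to 0.03 (without Wnk1f/f replicate 3).

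Replicate numbers shared by the genotypes belong to different mice. Deviations of same-numbered libraries from their genotype means had r from -0.268 to 0.0221, and those of different-numbered libraries from -0.144 to 0.305. So few values gave no sign of pairing by number, but they cannot exclude it. A fit with the replicate number as a block called 1 of the 10 genes (*Inhbb*), 1 as a DEG, with 220 genes and 1 pathway gene in all. None of the 4 controls correlated best with the Wnk1d/d library of its own number. Pseudocounts of 0.1 and 0.01, median scaling, quantile normalization, no trend and robust estimation changed no call of the 10 genes.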
